A study of Mus musculus with 18 samples.

Results

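The genes of the tumor necrosis factor (TNF) superfamily, its ligands and its receptors, were followed across all cell clusters of the adult mouse stomach. The members were every gene name that starts with Tnfsf or Tnfrsf, other than Tnfrsf19, together with *Tnf*, *Lta*, *Ltb*, *Ltbr*, *Cd40*, *Fas* and *Eda2r*, and 38 of 31201 gene names met this rule. They comprised 14 ligands, 22 receptors and 2 transcripts that overlap the *Tnfsf12* and *Tnfsf13* genes, the antisense RNA *Tnfsf13os* and the read-through gene *Tnfsfm13*. Single cells were measured by Quartz-Seq2, a plate-based method in which each well receives 1 sorted cell and each transcript molecule is counted once by a unique molecular identifier (UMI). All cells came from untreated wild-type male C57BL/6J mice, 10 weeks old, pooled by 3. The 2 pools of each dataset were prepared by 2 operators, so that mice and operator cannot be told apart between pools. Dataset 1 held 491 cells of corpus and antrum from the pools tube1 and tube2, and dataset 2 held 3993 cells of the corpus from the pools K and T. Dead cells were removed in the sort by propidium iodide (PI) in dataset 1 and by TO-PRO-3 in dataset 2, in which debris without the DNA dye Hoechst was removed as well, and a singlet gate was used in both. Cluster numbers and the names of the epithelial types were those of the study, other than isthmus-like for cluster 4-15 of dataset 1. The 6 types of dataset 2 were parietal, chief, neck and isthmus cells, with pre-pit and mature pit cells. The 7 types of dataset 1 were mature pit and pre-pit cells of the corpus and of the antrum, with isthmus-like, neck and parietal cells.

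Ligands of this superfamily are mostly trimeric proteins of the cell surface that can be shed, and each binds its receptor on a neighbouring cell or on the same cell. Receptors with a death domain, such as *Fas*, *Tnfrsf1a* and *Tnfrsf10b*, can recruit caspase adaptors. Many receptors without it bind TRAF adaptors directly, and receptors of both kinds can lead to the NF-kB transcription factors. In the gastric corpus, isthmus progenitor cells divide and give rise to pit cells toward the lumen and to neck, chief and parietal cells toward the base of the gland.

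Plates held 3054370 to 5346035 UMIs in dataset 1 and 10540256 to 12850942 in dataset 2. Each of the 384 well barcodes among the kept cells of dataset 2 recurred across plates. The depth ranged from 4489 to 161091 UMIs per cell in dataset 1 (median 38757) and from 4621 to 166610 in dataset 2 (median 31020). The lists of marker genes for pit, isthmus and parietal cells were higher in the clusters of their own type than in every other main epithelial cluster of either dataset. The summed neck markers of dataset 2 were higher in the pre-pit cluster (21988 CPM, UMI counts scaled to a common total as in the levels below but without scaling factors) and the 5 isthmus clusters (16845 to 21327) than in the 4 neck clusters (6123 to 12649), and the chief markers were higher in neck cluster 12 (213677) than in the chief cluster (193706), so that these lists do not set the neck clusters apart from the others. Isthmus cluster 11 had the lowest isthmus marker sum of the isthmus clusters (112.5 against 391.5 to 1473 CPM), was led by *Cym*, *Krt5* and *Chil4*, and had 87.1% and 84.4% of its cells in G1 in pools K and T by the study's phase calls.

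Receptors, not ligands, made up nearly all of the UMIs of the family in the epithelial types. In dataset 2, 3826 epithelial cells held 48319 UMIs of *Tnfrsf21*, 17813 of *Ltbr*, 9043 of *Tnfrsf1a*, 7545 of *Tnfrsf12a*, 1977 of *Tnfrsf11a* and 1096 of *Tnfrsf10b*. The ligand with the most UMIs there was *Tnfsf9* with 929, followed by *Tnfsf12* with 180 and *Tnfsf10* with 74, and *Tnf* itself had 3. UMIs mark transcript ends, so they were not divided by gene length. These totals give the count behind each value and are not read as an order of expression. In the 308 epithelial cells of dataset 1, *Tnfrsf21* had 4195 UMIs, *Ltbr* 1902, *Tnfrsf1a* 1197 and *Tnfrsf12a* 850, against 30 of *Tnfsf9*, 13 of *Tnfsf12* and 5 of *Tnf*.

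A further set of members was barely or not detected. No cell of dataset 1 held a UMI of *Lta*, *Tnfrsf13c* or *Tnfsf11*, and no cell of dataset 2 held one of *Tnfsf13*. In the epithelial cells of dataset 2, *Cd40*, *Ltb*, *Tnfrsf11b*, *Tnfsf11*, *Tnfsf13* and *Tnfsf14* had no UMI, and 13 members had none in the epithelial cells of dataset 1. *Eda2r*, *Lta*, *Tnfrsf13b*, *Tnfrsf13c*, *Tnfrsf14*, *Tnfrsf26*, *Tnfrsf8*, *Tnfrsf9*, *Tnfsf15*, *Tnfsf18*, *Tnfsf4* and *Tnfsf8* had between 1 and 12 UMIs in the epithelial cells of dataset 2. *Tnfsf13b* had 22 UMIs and *Tnfsfm13* 33. These genes, like *Tnf* and *Tnfsf10*, did not pass the filter on low counts in the comparison of epithelial types, in which 16 members were tested in dataset 2 and 8 in dataset 1.

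Among the 6 epithelial types of dataset 2, 15 of the 16 members tested differed at an adjusted p below 0.05 (edgeR quasi-likelihood test on UMI sums per type and pool, Benjamini-Hochberg over 13894 genes), while 87.6% of all genes tested did. The member that did not pass was *Tnfrsf12a* (adjusted p = 0.0740), and with the pool as a block it passed as well (adjusted p = 0.000131). The clusters were made by the study from the same counts, so that these p-values describe how far apart the types lie. Levels below are CPM of the summed cells of a type, with TMM scaling factors, given for pool K and then pool T.

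**Figure D1:**
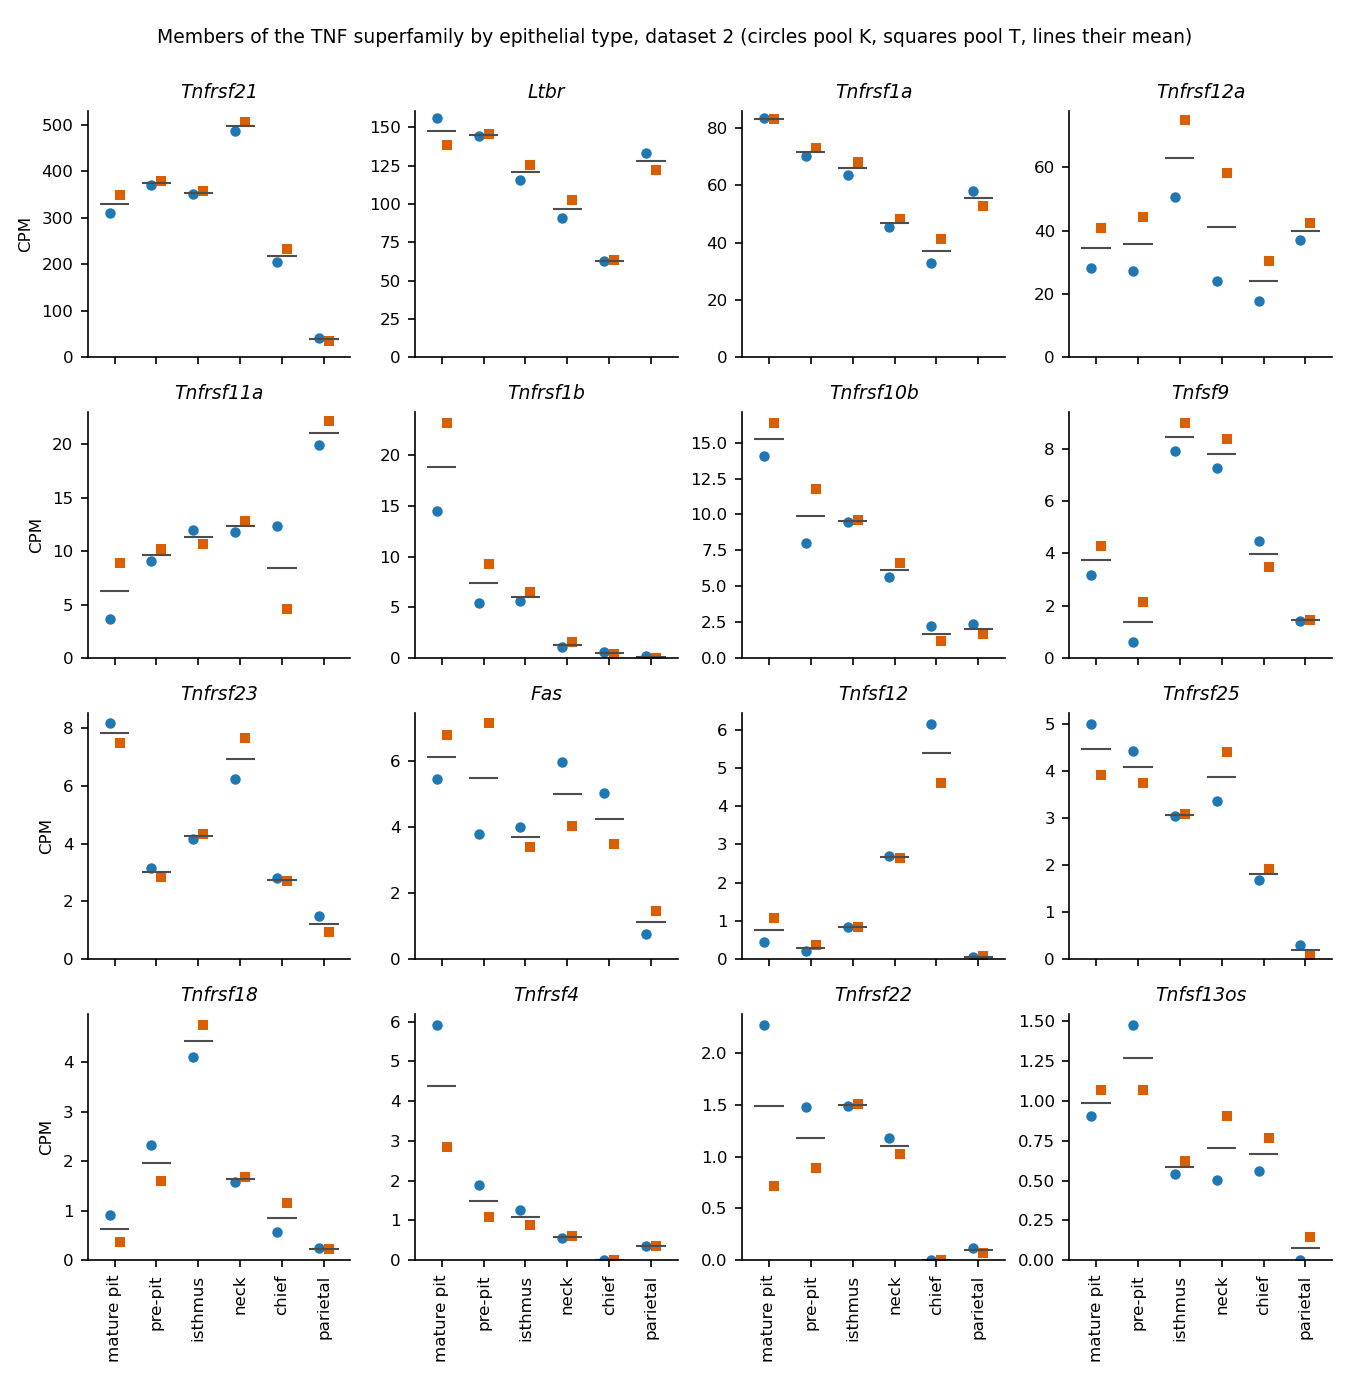
Levels (CPM, y axis from 0) of the 16 members tested in dataset 2 in 6 epithelial types; circles show pool K, squares pool T and lines their mean. *Tnfrsf21* lay between 204 and 507 CPM in 5 types and at 41.2 and 34.5 CPM in parietal cells, and *Tnfrsf18* was highest in isthmus cells.

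*Tnfrsf21*, a receptor with a death domain, was lower in parietal cells than in the 5 other types. Its level was 486 and 507 CPM in neck cells, 371 and 379 in pre-pit cells, 351 and 357 in isthmus cells, 311 and 349 in mature pit cells, 204 and 233 in chief cells and 41.2 and 34.5 in parietal cells. The pools differed less than the types at both ends of this order, whereas the values of mature pit, isthmus and pre-pit cells lay close together, and mature pit and isthmus cells did not pass the test (log2 fold change −0.10 ± 0.10 SE, adjusted p = 0.478). Against isthmus cells, *Tnfrsf21* was lower in parietal cells by a log2 fold change of −3.22 ± 0.11 SE (adjusted p = 9.2e-12) and higher in neck cells by 0.49 ± 0.10 (adjusted p = 0.000954). A UMI of the gene was found in 1281 of 1285 isthmus cells and in 328 of 702 parietal cells. At 10000 UMIs per cell the shares were 96.1% and 20.9%.

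Parietal cells, which secrete acid, had lower levels of most members than isthmus cells. Of 16 members tested, 13 were lower, 1 was higher and 2 did not pass, while 71.8% of all genes passed in this comparison, 36.7% lower and 35.2% higher. The median log2 fold change of the members was −2.38 and that of all genes −0.05. *Tnfrsf1b*, the second TNF receptor, which lacks a death domain, was at 5.60 and 6.48 CPM in isthmus cells and at 0.237 and 0 in parietal cells, from 405 and 4 UMIs. *Tnfrsf18*, a costimulatory receptor best known from T cells, was at 4.1 and 4.75 CPM in isthmus cells and at 0.237 and 0.218 in parietal cells (log2 fold change −4.22 ± 0.35 SE, adjusted p = 9.6e-08). *Tnfrsf25*, a further death receptor, fell by 3.91 ± 0.40 on the log2 scale, *Tnfrsf22* and *Tnfrsf23*, mouse receptors that bind TRAIL without a death domain, by 3.81 ± 0.56 and 1.78 ± 0.24, and *Tnfrsf10b*, the mouse TRAIL death receptor, by 2.22 ± 0.22. *Fas* fell by 1.75 ± 0.35, *Tnfrsf4* by 1.54 ± 0.48 and *Tnfrsf1a*, the TNF receptor with a death domain, by 0.25 ± 0.08 (adjusted p = 0.0175).

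The single member that was higher in parietal cells was *Tnfrsf11a*, the receptor RANK, at 19.9 and 22.1 CPM against 11.9 and 10.7 in isthmus cells (log2 fold change 0.89 ± 0.19 SE, adjusted p = 0.000787). This call did not hold without scaling factors (0.39, adjusted p = 0.0747), a setting that shifted the median of all genes in this comparison by −0.50. *Ltbr*, the lymphotoxin beta receptor, was at 133 and 122 CPM in parietal cells and at 116 and 125 in isthmus cells (log2 fold change 0.08 ± 0.09, adjusted p = 0.403), and without scaling factors it was lower in parietal cells (−0.42, adjusted p = 0.000624). *Tnfrsf12a* was at 37.1 and 42.4 CPM in parietal cells against 50.6 and 75.1 (−0.67 ± 0.31, adjusted p = 0.0650, and 0.00115 with the pool as a block). Parietal cells also carried a larger mitochondrial share of UMIs, with medians of 20.5% and 18.1% in pools K and T against 4.33% and 4.20% in isthmus cells, and its part in these differences was not tested.

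Upstream windows are printed for *Tnfrsf21*, *Tnfrsf23* and *Tnfrsf25*, as receptors that were lower in parietal cells and whose windows lie outside any other annotated exon, and for *Tnf*, whose UMIs lay mostly in macrophage-like cells as described further on. Each is the 250 bases before the annotated start in GRCm39 (GENCODE M39), read along the strand of the gene. Capitals mark matches to the kB-like letters GGG, 5 bases of any kind and CC on either strand, overlapping matches included. The windows are chr17:43327099-43327348 on the plus strand for *Tnfrsf21*, chr7:143239612-143239861 on the minus strand for *Tnfrsf23*, chr4:152200141-152200390 on the plus strand for *Tnfrsf25* and chr17:35420984-35421233 on the minus strand for *Tnf*.
Tnfrsf21: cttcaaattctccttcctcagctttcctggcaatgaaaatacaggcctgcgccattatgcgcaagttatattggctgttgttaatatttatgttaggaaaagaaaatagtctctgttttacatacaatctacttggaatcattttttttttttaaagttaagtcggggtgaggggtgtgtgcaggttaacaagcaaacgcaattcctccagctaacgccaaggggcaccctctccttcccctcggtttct
Tnfrsf23: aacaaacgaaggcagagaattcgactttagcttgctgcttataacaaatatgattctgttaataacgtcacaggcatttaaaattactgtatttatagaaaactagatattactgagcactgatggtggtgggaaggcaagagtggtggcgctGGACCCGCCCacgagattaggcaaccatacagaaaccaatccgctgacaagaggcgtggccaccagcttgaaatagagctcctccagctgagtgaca
Tnfrsf25: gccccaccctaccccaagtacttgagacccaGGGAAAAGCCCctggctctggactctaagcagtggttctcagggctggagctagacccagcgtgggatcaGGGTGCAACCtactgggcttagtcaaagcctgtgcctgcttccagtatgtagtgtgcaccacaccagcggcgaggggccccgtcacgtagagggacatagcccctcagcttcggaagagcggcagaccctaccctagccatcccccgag
Tnf: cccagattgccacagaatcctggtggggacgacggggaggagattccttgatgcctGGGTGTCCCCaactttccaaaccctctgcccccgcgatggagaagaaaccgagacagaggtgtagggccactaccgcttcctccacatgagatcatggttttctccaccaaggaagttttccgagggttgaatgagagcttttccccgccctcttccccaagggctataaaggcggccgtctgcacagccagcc
The *Tnf* window holds 1 match, which starts 194 bases before the start site, the *Tnfrsf23* window 1 at 97 bases, the *Tnfrsf25* window 3 at 219, 218 and 149 bases, the former 2 overlapping, and the *Tnfrsf21* window none. These letters are common, with a match in 43.6% of 21770 windows of protein-coding genes and in 23 of the 37 windows of protein-coding members. The AP-1-like letters TGANTCA were found in 4 member windows, against 6.46% of all windows, and the CRE letters TGACGTCA in 0 against 1.31%.

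**Figure D2:**
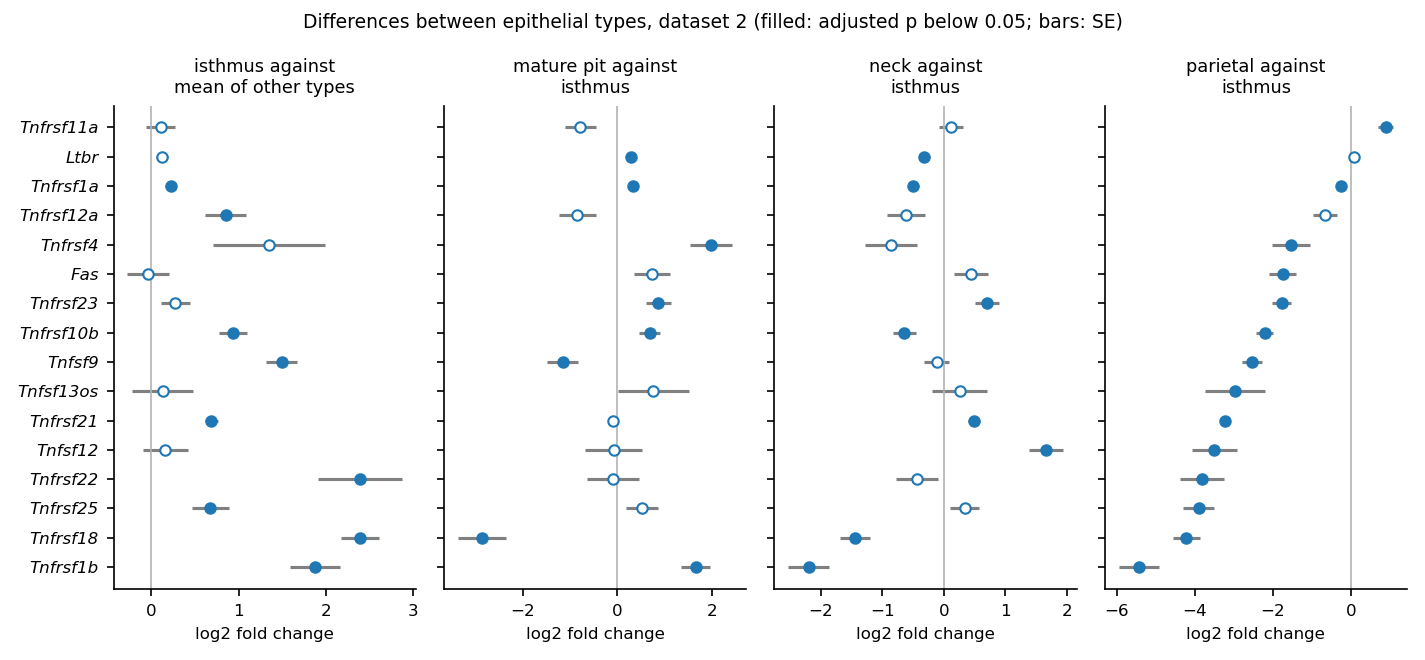
Log2 fold changes (x axis) with SE bars of the 16 members in 4 comparisons of dataset 2; filled points have an adjusted p below 0.05. In the comparison of parietal with isthmus cells 13 members lie below 0 with a filled point and *Tnfrsf11a* alone lies above 0 with one.

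Isthmus progenitor cells had higher levels of 9 of 16 members than the mean of the other 5 types, and no member was called lower, while 28.1% of all genes were called higher and 23.1% lower (51.3% in all). The median of the members was 0.68 on the log2 scale and that of all genes 0.02. The mean of the other types includes the low parietal values. *Tnfrsf18* was higher by 2.4 ± 0.22 SE (adjusted p = 7.3e-07), and its isthmus values of 4.1 and 4.75 CPM lay above those of all other types, of which pre-pit cells came nearest with 2.32 and 1.61. *Tnfrsf12a*, also known as Fn14, the receptor of TWEAK, was higher by 0.85 ± 0.24 (adjusted p = 0.00837). *Tnfsf9*, the ligand of *Tnfrsf9*, was at 7.90 and 8.99 CPM in isthmus cells and at 7.24 and 8.37 in neck cells, and these ranges overlapped. *Tnfrsf1a*, *Tnfrsf1b*, *Tnfrsf10b*, *Tnfrsf21*, *Tnfrsf22* and *Tnfrsf25* were called higher as well, by 0.22 to 2.39.

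With scaling factors, several of these receptors were higher in mature pit than in isthmus cells. Mature pit cells stood above isthmus cells for 6 of 16 members and below for 2, while 38% of all genes passed in that comparison, 17.9% higher and 20.1% lower. *Tnfrsf1b* was at 14.5 and 23.2 CPM in mature pit cells, 5.48 and 9.28 in pre-pit cells, 5.60 and 6.48 in isthmus cells and at or below 1.57 in neck, chief and parietal cells, and rose by 1.66 ± 0.31 SE from isthmus to mature pit cells (adjusted p = 0.000753). *Tnfrsf4*, a costimulatory receptor, rose by 1.99 ± 0.46 with 1.26 and 0.891 CPM in isthmus cells and 5.91 and 2.85 in mature pit cells, the latter based on 21 UMIs. *Tnfrsf10b* rose by 0.68 ± 0.23 and *Tnfrsf23* by 0.87 ± 0.26. Without scaling factors neither was called (0.33 and 0.52, edgeR adjusted p = 0.223 and 0.108). *Tnfrsf18* fell by 2.87 ± 0.52 and *Tnfsf9* by 1.16 ± 0.33. *Tnfrsf1a* (0.34 ± 0.10, adjusted p = 0.0136) and *Ltbr* (0.29 ± 0.09, adjusted p = 0.0285) were called higher in mature pit cells with scaling factors, and without them the direction turned (−0.01 and −0.06, not called), a setting that shifted the median of all genes by −0.35. For *Tnfrsf12a* the levels were 28.2 and 41.0 CPM in mature pit cells and 50.6 and 75.1 in isthmus cells (−0.84 ± 0.40, adjusted p = 0.116, and 0.00255 with the pool as a block). Without scaling factors *Tnfrsf12a* (−1.20, edgeR adjusted p = 0.0163), *Tnfrsf11a* (−1.14, 0.0086) and *Tnfrsf21* (−0.45, 0.00134) were called lower in mature pit cells. In that setting *Tnfrsf1b* and *Tnfrsf4* were still called higher. A list of 13 dissociation-response genes was lower in mature pit cells for 12 genes, and its part in these changes was not tested. The number of members called was 2 without the mature pit sum of pool K, 5 without that of pool T and 4 without the isthmus sum of pool K.

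Neck cells differed from isthmus cells in 8 of 16 members, 3 higher and 5 lower, while 50.7% of all genes passed (26.4% higher, 24.3% lower). *Tnfsf12*, the ligand TWEAK, was higher by 1.65 ± 0.28 SE (adjusted p = 0.000257), at 2.7 and 2.65 CPM in neck cells, 0.848 and 0.837 in isthmus cells, 6.15 and 4.62 in chief cells and 0.0593 and 0.0727 in parietal cells. In the order chief, neck and isthmus the pools of *Tnfsf12* did not overlap. The UMIs behind these values were 23 in chief, 92 in neck, 56 in isthmus and 2 in parietal cells. *Tnfrsf23* (0.70 ± 0.19) and *Tnfrsf21* were higher in neck cells as well. *Tnfrsf1b* was lower by −2.20 ± 0.33, *Tnfrsf18* by −1.44 ± 0.24, *Tnfrsf10b* by −0.64 ± 0.19, *Tnfrsf1a* by −0.50 ± 0.08 and *Ltbr* by −0.32 ± 0.09. The level of *Tnfrsf1a* was 45.3 and 48.2 CPM in neck cells and 33.0 and 41.2 in chief cells, the lowest of the 6 types, and *Ltbr* was lowest in chief cells too with 62.6 and 63.2 CPM. Without the isthmus sum of pool T, 5 members were called in neck cells.

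*Tnfrsf12a*, the TWEAK receptor, varied widely between pools and among the clusters of a type. Pool T was above pool K in all 6 types, from 37.1 and 42.4 CPM in parietal cells to 24.2 and 58.2 in neck cells (adjusted p against isthmus cells 0.105, and 0.00103 with the pool as a block). Among the 4 neck clusters, cluster 0 had 76.4 and 109 CPM, cluster 2 had 20.9 and 21.3, cluster 12 had 15.0 and 8.17 and cluster 7 had 6.36 and 6.44, with scaling factors over all 20 clusters. Cluster 0 made up 21.0% of the neck cells of pool K and 55.7% of those of pool T. Leaving out cluster 0 was an alternative chosen after seeing the data. The neck level was then 15.1 and 13.1 CPM without scaling factors in place of 29.6 and 68.9, and the pools no longer stood apart. In isthmus cells, leaving out cluster 11 gave 55.3 and 89.5 CPM in place of 64.1 and 94.2, and the pools still stood apart. The cause of the pool difference was not tested. Cluster 0 was led by *Ccn1*, *Depp1* and *Nr4a1*, with *Fosb* and *Atf3* among its leading genes, and the summed level of a list of 13 dissociation-response genes, such as *Fos*, *Jun* and *Hspa1a*, was 21332 and 24855 CPM in it and 1181 to 4208 in the other 3 neck clusters.

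Isthmus cluster 11 was compared with isthmus clusters 3, 5, 6 and 9 because at most 10.2% of the cells of the other 4 were in G1 in either pool. Of 14 members tested, 3 were higher and 1 was lower in cluster 11, while 29.4% of all genes passed. *Tnfrsf12a* was at 140 and 121 CPM in cluster 11 and between 42.8 and 101 in the other 4 (log2 fold change 0.88 ± 0.22 SE, adjusted p = 0.00301). *Tnfrsf21* was higher by 0.48 ± 0.09 and *Ltbr* by 0.24 ± 0.08, and *Tnfrsf18* was lower by −1.42 ± 0.41. Without cluster 11 of pool K, 1 member was called. The dissociation list summed to 15268 and 13376 CPM in cluster 11 and to 3464 to 9844 in the other isthmus clusters, and 11 of its 13 genes were called higher, against 14.6% of all genes. In the comparison of isthmus cells with the mean of the other types, 6 of the 13 were called higher. Chief cells, in cluster 10, had list sums of 7658 and 13350 CPM with *Tnfrsf12a* at 21.5 and 37.0. The part of the dissociation response in the levels of *Tnfrsf12a* was not tested.

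**Figure D3:**
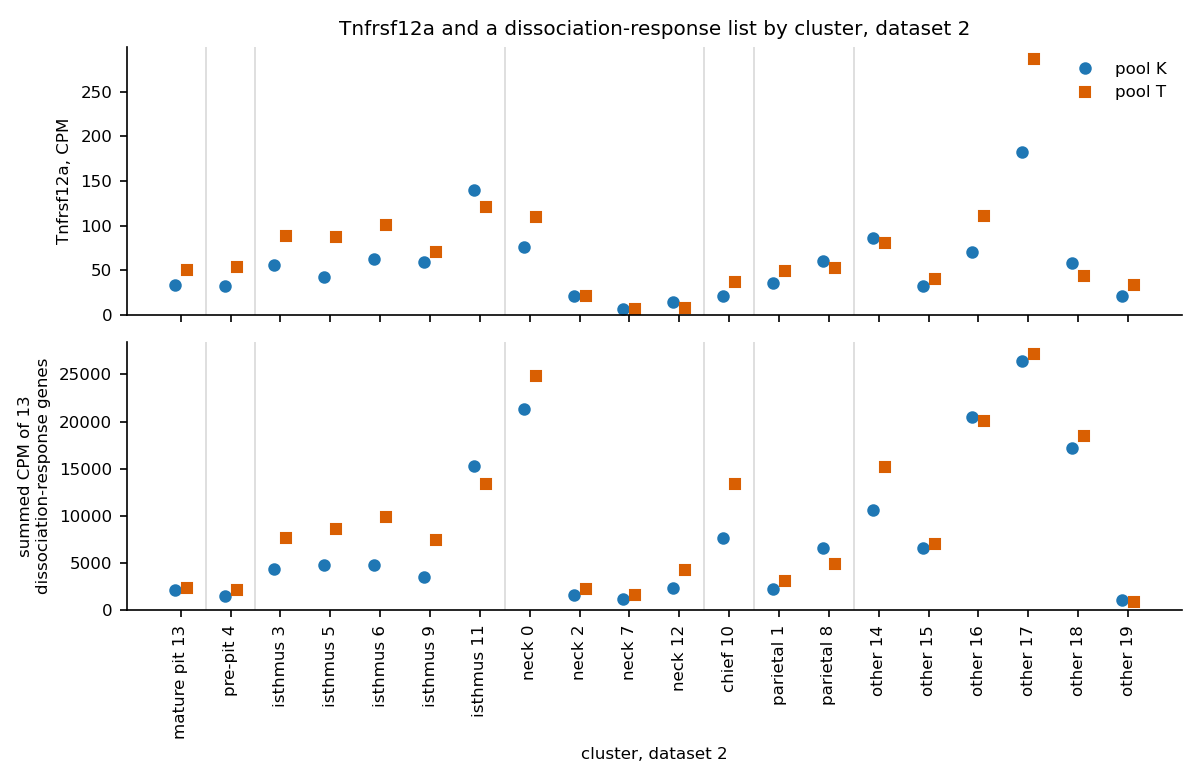
*Tnfrsf12a* (upper panel, CPM) and the summed level of 13 dissociation-response genes (lower panel, CPM) in the 20 clusters of dataset 2, pool K as circles and pool T as squares. Neck cluster 0, isthmus cluster 11 and cluster 17 are high in both panels, cluster 16 has 70.1 and 110 CPM in the upper panel and 20512 and 20013 in the lower, cluster 18 is high in the lower panel only, and chief cluster 10 reaches 13350 CPM in pool T in the lower panel with *Tnfrsf12a* at 37.0.

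The exons of *Tnfrsf12a* (chromosome 17, 23894416 to 23896468, minus strand) lie wholly within the opposite-strand gene *Hcfc1r1* in GENCODE M39, with all 1965 exon bases shared. The study counted reads with an earlier Gencode release, so the overlaps given here need not be those of the counting. The sources used here do not state whether the counting used strand, so reads of the pair may not be told apart. In dataset 2 *Hcfc1r1* was lower in isthmus cells than in the other types (−0.25 ± 0.09 SE, edgeR adjusted p = 0.0275). It was higher in mature pit (0.54 ± 0.11) and parietal cells (0.42 ± 0.11) than in isthmus cells. Like *Tnfrsf12a*, it was higher in pool T than in pool K in mature pit cells (187 and 224 CPM in K and T). This held in every type but chief cells (149 and 141). The part of *Hcfc1r1* reads in the counts of *Tnfrsf12a* was not tested. Other members share exon bases too, among them *Tnfsf12* with the same-strand read-through *Tnfsfm13* (980 of 1872 bases), *Tnfsf13* with *Tnfsfm13* (1252 of 1906), *Tnfrsf18* with *Gm16008* (547 of 1524), *Tnfrsf25* with *Espn* (512 of 3000), *Tnfsf9* with *Gm11110* (192 of 1329), *Ltb* with *Gm65873* (354 of 1549), *Tnfrsf13c* with *Gm62282* (407 of 2058) and *Tnfsf13os* with *Tnfsf13* (256 of 2031) and *Tnfsfm13* (259). *Gm65873* and *Gm62282* are not among the gene names of the counts. By their positions in GENCODE M39, reads of *Tnfsf12*, *Tnfsf13* and *Tnfsfm13* cannot be fully assigned to a gene. *Espn*, which lies opposite to *Tnfrsf25*, was lower in parietal cells by −3.22 ± 0.11, close to the fall of *Tnfrsf25*. From isthmus to mature pit cells *Espn* rose by 1.10 ± 0.09, while *Tnfrsf25* was not called. The part of *Espn* reads in the counts of *Tnfrsf25* was not tested.

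Dataset 1 gave comparisons of the same kind from fewer cells. Its mean of the other types held pit types of corpus and antrum, neck and parietal cells, and no chief cells. Of 8 receptors tested, 8 differed among the 7 epithelial types, while 77.7% of all genes did. In isthmus-like cells *Tnfrsf12a* was at 53.5 and 107 CPM in tube1 and tube2, higher than the mean of the other types by 1.23 ± 0.22 SE (adjusted p = 0.000223), and *Tnfrsf10b* by 0.84 ± 0.30 (adjusted p = 0.0329), so that 2 of 8 members were called higher and none lower, while 24.1% of all genes were called higher and 16.5% lower (40.6% in all). No member was called without the isthmus-like sum of tube2, and 1 was called without that of tube1 or without the parietal sum of tube2. The dissociation list was called higher for 11 of 13 genes in the same comparison and lower for 11 of 13 in corpus mature pit against isthmus-like cells. In neck against isthmus-like cells it was higher for 11 of 13 genes, with sums of 7361 and 8140 against 2655 and 3963 CPM. *Tnfrsf12a* was lower in mature pit cells of the corpus (3.90 and 15.7 CPM, −3.09 ± 0.47), in neck cells (39.6 and 19.5, −1.55 ± 0.35) and in parietal cells (32.1 and 23.7, −1.60 ± 0.31). *Hcfc1r1* rose in corpus mature pit cells by 1.10 ± 0.15 and in parietal cells by 0.65 ± 0.15.

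In dataset 1, parietal cells were lower than isthmus-like cells for 5 of the 8 receptors tested and higher for none, while 60.3% of all genes passed, 28.3% higher and 32% lower. *Tnfrsf21* was at 37.0 and 23.3 CPM in parietal cells and at 209 and 251 in isthmus-like cells (−3.01 ± 0.21 SE, adjusted p = 4.0e-10). *Tnfrsf1b* had 0 UMIs in 57 parietal cells and 33 in 53 isthmus-like cells. *Tnfrsf10b* was lower by −3.62 ± 0.60 and *Tnfrsf1a* by −0.84 ± 0.17. The median mitochondrial share was 17.6% and 17.4% in parietal cells against 4.1% and 4.51%. In corpus mature pit cells 6 of 8 passed (43% of all genes), with *Tnfrsf1b* higher by 1.80 ± 0.38, *Fas* by 1.92 ± 0.56, *Tnfrsf21* by 0.72 ± 0.16 and *Tnfrsf1a* by 0.56 ± 0.17, and with *Tnfrsf11a* lower by −1.96 ± 0.77 besides *Tnfrsf12a*. Without scaling factors *Tnfrsf21* (0.26, edgeR adjusted p = 0.191) and *Tnfrsf1a* (0.11, 0.570) were not called there. That setting shifted the median of all genes in this comparison by −0.45. In neck cells 4 of 8 passed (29.3% of all genes), with *Tnfrsf21* higher by 0.71 ± 0.16 and *Tnfrsf1b* and *Tnfrsf1a* lower by −2.38 ± 0.72 and −0.51 ± 0.18 besides *Tnfrsf12a*. The number called was 2 in mature pit cells without the corpus mature pit sum of tube1, and 1 in neck cells without the neck sum of tube2.

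The difference between datasets was tested as an interaction over 13 members in 3 comparisons. For mature pit against isthmus cells 1 member passed, *Tnfrsf21*, with a log2 fold change lower by −0.80 ± 0.21 SE in dataset 2 (adjusted p = 0.0365), while 3.35% of all genes passed. Its isthmus level was 351 and 357 CPM in dataset 2 and 209 and 251 in dataset 1, and its mature pit level 311 and 349 against 408 and 349. For *Tnfrsf12a* the interaction was 2.28 ± 0.95 (adjusted p = 0.207). For neck and parietal cells no member passed in edgeR, while 0.157% and 0.569% of all genes did, and at an unadjusted p below 0.05 *Tnfrsf23* did for neck cells and *Tnfrsf1a* for parietal cells. The datasets differ in region, in the order of the enzymes used for dissociation and in the dyes and gate of the sort, which cannot be told apart.

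**Figure D4:**
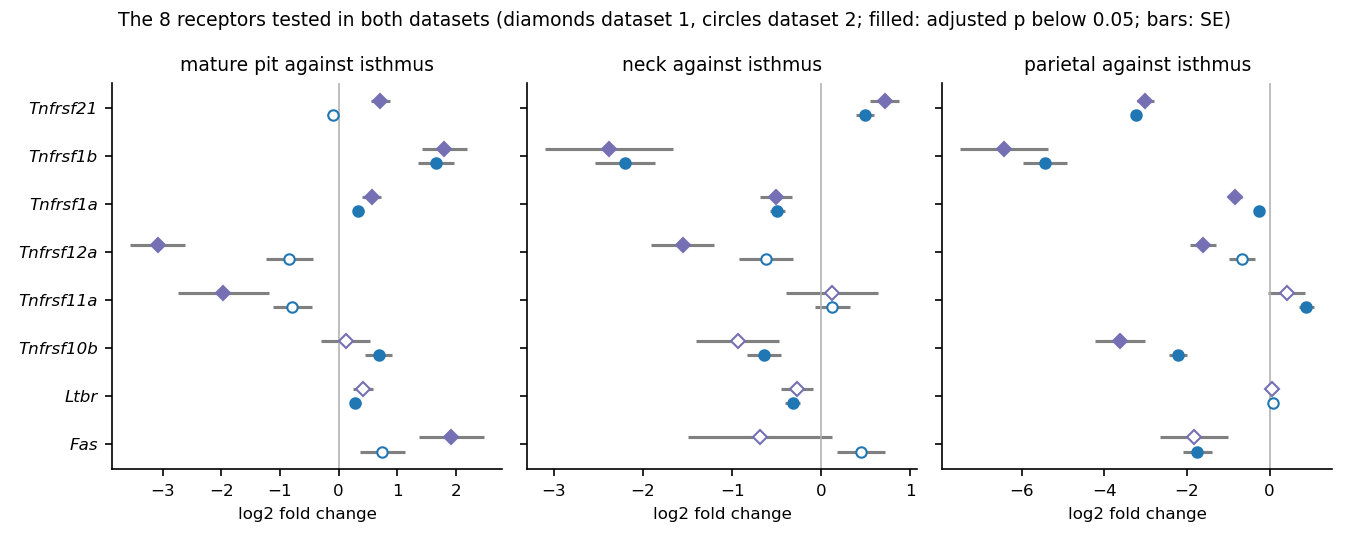
Log2 fold changes (x axis) with SE bars of the 8 receptors tested in both datasets, for mature pit, neck and parietal cells against isthmus cells; diamonds show dataset 1, circles dataset 2, and filled points have an adjusted p below 0.05. *Tnfrsf21* lies on opposite sides of 0 in the mature pit panel and near −3 in both datasets in the parietal panel.

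Corpus and antrum pit cells of dataset 1 differed in 1 of 8 receptors, while 9.24% of all genes passed, 3.75% higher and 5.48% lower. *Tnfrsf12a* was lower in corpus pit cells by −1.12 ± 0.33 SE (adjusted p = 0.0383). In tube1 and tube2 it was at 3.90 and 15.7 CPM in mature pit cells of the corpus and at 75.1 and 70.1 in corpus pre-pit cells, against 60.9 and 82.5 in antrum mature pit cells and 50.5 and 42.8 in antrum pre-pit cells. The low values lay in corpus mature pit cells, and corpus pre-pit cells were above antrum pre-pit cells in both pools and above antrum mature pit cells in tube1 only. *Tnfrsf21*, *Ltbr*, *Tnfrsf1a*, *Tnfrsf1b*, *Tnfrsf10b*, *Tnfrsf11a* and *Fas* did not pass, with adjusted p-values from 0.101 to 0.775. The call was lost in 6 of 8 fits that each left out 1 sum of a pit type and pool.

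Several ligands reached higher levels outside these epithelial types. The remaining clusters, 6 in dataset 2 and 8 in dataset 1, were each compared with the mean of the main epithelial clusters. In dataset 2, *Tnf*, *Tnfrsf9*, *Tnfsf10*, *Tnfsf13b* and *Tnfsfm13* passed the filter on low counts only in the fit over all clusters and not among the epithelial types alone, and in dataset 1 this held for *Tnf*, *Tnfrsf11b*, *Tnfrsf18*, *Tnfrsf22*, *Tnfsf10*, *Tnfsf12*, *Tnfsf13b*, *Tnfsf13os* and *Tnfsfm13*. A member that enters through a cluster where it is high has to differ there, so these are described by their levels, with no test. Of the 16 other members of dataset 2, 14 passed in at least 1 cluster, 12 of them as higher in at least 1, while 69.2% of the genes chosen in the same way passed and 37.6% were higher. Of the 8 of dataset 1, 7 passed and 5 were higher in at least 1, while 80.3% of such genes passed and 53.1% were higher. These clusters hold from 8 to 70 cells. They were named X-like only from marker genes, and include endocrine, tuft-like and enterocyte-like cells, which are epithelial too. Their levels per cluster are CPM with scaling factors over all clusters of the dataset, and fold values are ratios of CPM without scaling factors, both pools summed, to the main epithelial cells.

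*Tnf*, the founding ligand, lay mostly in macrophage-like cells. In dataset 2, 29 of its 32 UMIs lay in cluster 18, 13 cells led by *H2-Aa* and *Lyz2* with 3 macrophage markers among its top 10 genes, at 176 CPM in pool K and 202 in pool T. In dataset 1, 10 of 17 UMIs lay in cluster 16, 8 macrophage-like cells, at 117 and 50.0 CPM in tube1 and tube2, 2 in cluster 14 and 5 in 2 neck cells. No other of the 20 clusters of dataset 2 had more than 1 UMI of *Tnf*. A UMI was seen in 0 of 702 parietal cells, for which the exact binomial interval ends at 0.524%, and in 1 of 1285 isthmus cells (95% exact interval 0.00197% to 0.433%). The marker sums of macrophages were at or below 15.6 CPM in every other cluster of dataset 2, against 20509 in cluster 18.

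The same macrophage-like cells carried further members in both datasets, with 7 of 16 tested members called in cluster 18 (5 higher, 2 lower, against 20.3% of genes) and 4 of 8 in cluster 16 (3 higher, 1 lower, 24.3%). *Tnfsf12* was at 106 and 86.5 CPM in cluster 18 of dataset 2 (83.0-fold the epithelial level, adjusted p = 3.7e-10) and at 117 and 87.4 in cluster 16 of dataset 1 (163-fold). *Tnfsf13b*, the B cell ligand BAFF, was at 47.0 and 144 CPM in cluster 18 and at 0 and 87.4 in cluster 16, where all its UMIs were from tube2. *Tnfrsf1b* was at 293 and 43.3 CPM, far apart between the pools, and at 136 and 200 in dataset 1. *Tnfrsf1a* was 4.19-fold and 5.46-fold above the epithelial level, and *Tnfrsf11a* 7.05-fold and 9.34-fold. For *Tnfrsf11a* in cluster 18, pool K gave 13 UMIs while pool T gave 1. Its 7.05-fold value thus rested mostly on pool K. *Tnfrsf18* was called in cluster 18 from 4 UMIs. *Tnfrsf13b*, a receptor of BAFF with 12 UMIs in all of dataset 1, did not pass the filter. *Cd40*, a receptor of antigen-presenting cells, had 6 of its 8 UMIs of dataset 2 in cluster 18.

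**Figure D5:**
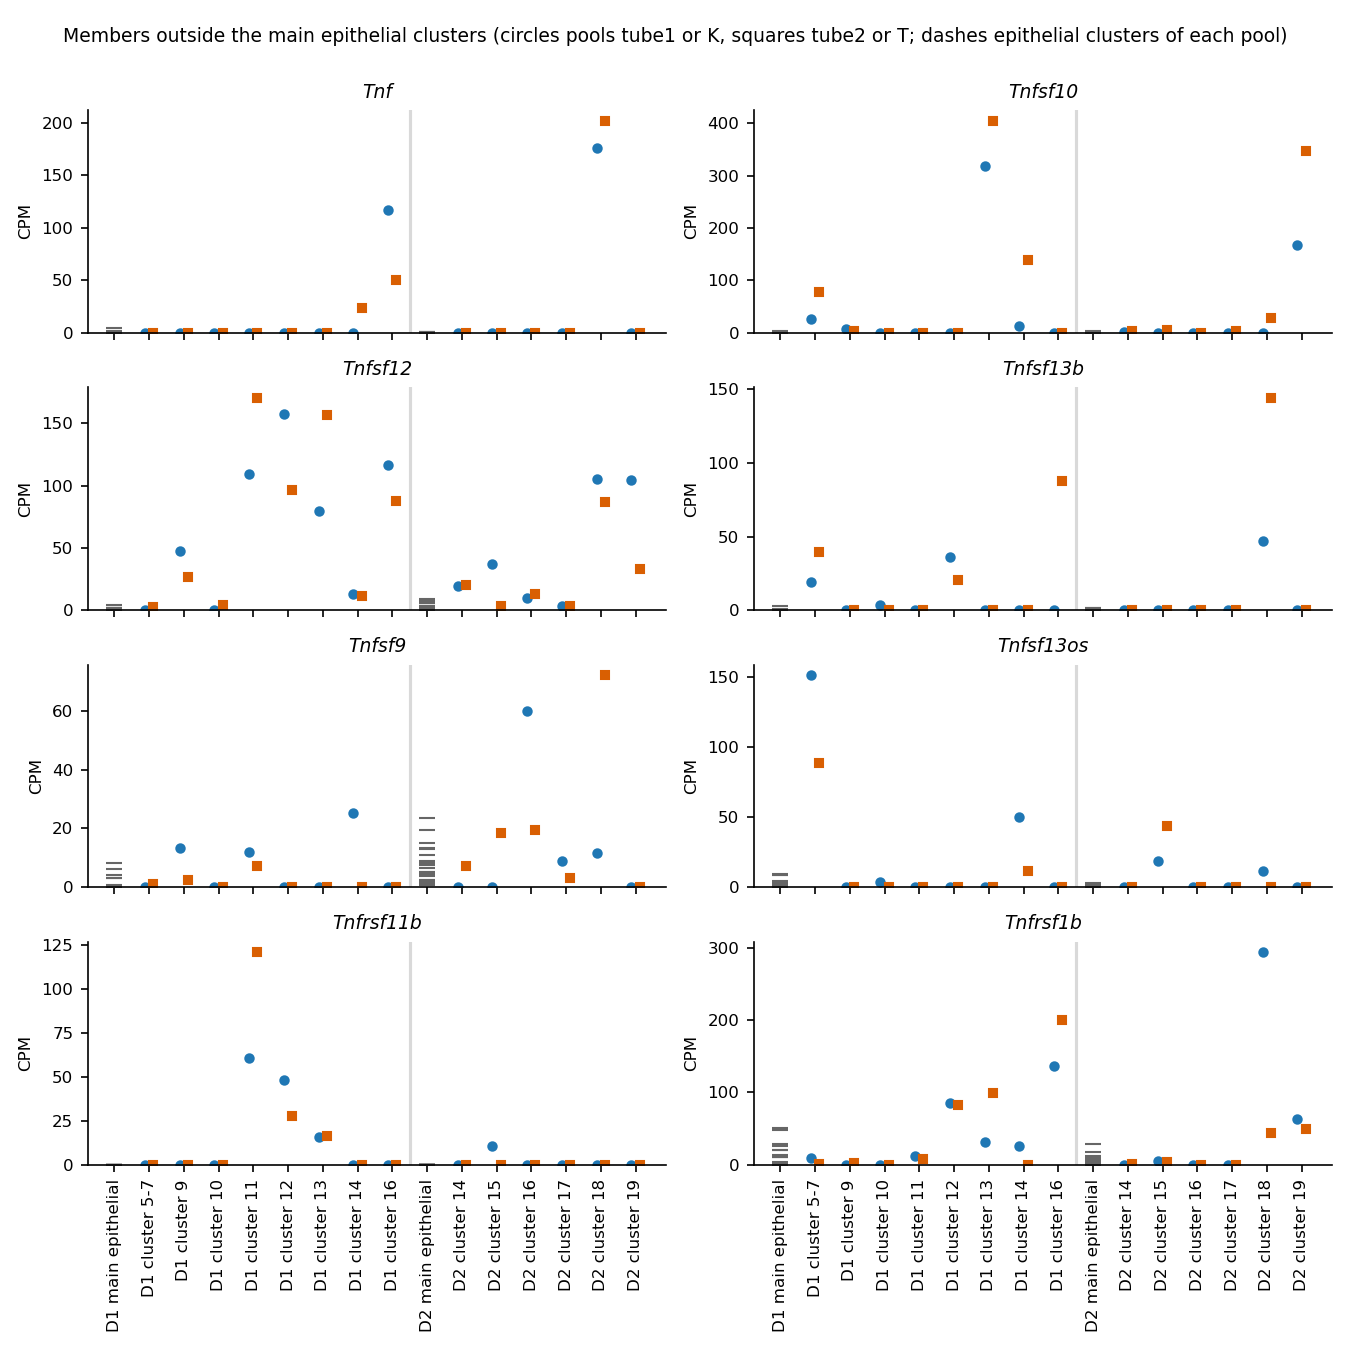
Levels (CPM, y axis from 0) of 8 members in the clusters outside the main epithelial types of dataset 1 (left of the line) and dataset 2 (right); circles show tube1 or K, squares tube2 or T, and grey dashes the main epithelial clusters of each pool. *Tnf* stands out in cluster 16 of dataset 1 and cluster 18 of dataset 2, and *Tnfsf10* in clusters 13 and 19.

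*Tnfsf10*, the ligand TRAIL, was highest in endothelial-like cells. It was at 318 and 405 CPM in cluster 13 of dataset 1 (69 UMIs in 15 cells, 1107-fold the epithelial level) and at 167 and 347 CPM in cluster 19 of dataset 2 (29 UMIs in 9 cells, 781-fold). Haemoglobin genes led cluster 13 of dataset 1 together with *Kdr* and *Flt1*. The TRAIL receptor *Tnfrsf10b* was higher in the same clusters, 14.7-fold and 16.4-fold, as was *Fas*, 24.8-fold and 25.1-fold. *Tnfsf12* was at 79.6 and 157 CPM in cluster 13 and at 104 and 33.1 in cluster 19. In all, 5 of 8 tested members were called in cluster 13 (30% of genes) and 8 of 16 in cluster 19 (17.2%). *Tnfrsf1a* and *Tnfrsf1b* were called higher in both, and *Tnfrsf22* in cluster 19 from 3 UMIs. *Tnfrsf25* was called higher in cluster 19 from 3 UMIs (adjusted p = 0.0429, and 0.0533 with the pool as a block).

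Stromal clusters of dataset 1 carried *Tnfsf12* and *Tnfrsf11b*, the secreted decoy receptor osteoprotegerin. *Tnfsf12* was at 110 and 171 CPM in smooth muscle-like cluster 11 (18 cells) and at 157 and 96.9 in fibroblast-like cluster 12 (15 cells), 222-fold and 173-fold the epithelial level. *Tnfrsf11b* had 0 UMIs in 308 epithelial cells, and 22 in cluster 11 (60.9 and 121 CPM) and 8 in cluster 12 (48.4 and 27.7 CPM), at least 641-fold and 222-fold higher when the epithelial sum is set to a floor of 3 UMIs. In all, 2 of 8 tested members were called in cluster 11 (31.2% of genes) and 3 in cluster 12 (30.9%). *Tnfrsf1a* was 3.80-fold and 4.45-fold above the epithelial level, and *Tnfrsf1b* was called higher in cluster 12. In dataset 2 no cluster was stromal by its leading genes, but tuft-like cluster 15 held 5 cells with more UMIs of stromal than of tuft markers. These 5 cells held 10 of the 15 UMIs of *Tnfsf12* of the cluster and none of the 21 of *Tnfsf13os*, while 26 cells with more tuft marker UMIs held 5 and 21.

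*Tnfsf13os*, an RNA transcribed opposite to *Tnfsf13*, was high in tuft-like and enterocyte-like cells. It was at 18.7 and 43.5 CPM in cluster 15 of dataset 2 (65.1-fold, adjusted p = 4.9e-09) and at 151 and 88.7 CPM in enterocyte-like cluster 5-7 of dataset 1 (28.8-fold), 70 cells led by *Cyp2c29*, *Cyp3a11* and *S100g* with all 5 enterocyte markers detected. In all, 3 of 16 tested members were called in cluster 15 (28.4% of genes) and 4 of 8 in cluster 5-7 (49.4%). Cluster 5-7 also had *Fas* at 80.3 and 88.7 CPM (11.4-fold), *Tnfsf10* at 25.7 and 78.5 (103-fold), *Tnfsf13b* at 19.3 and 39.3 and *Tnfrsf11a* 4.48-fold above the epithelial level. Cluster 14 of dataset 1 held 12 cells with mast, tuft, leukocyte and T cell markers. Their median depth was 0.171 of the dataset's median. *Tnfsf13os* had 5 UMIs there, all in 8 cells with more tuft than stromal marker UMIs. *Tnfsf10* had 13, all in the other 4 cells, in which tuft and stromal marker UMIs were equal. The cluster's leukocyte and T cell markers summed to 1107 and 907 CPM without scaling factors, against 8.33 for fibroblast and 0 for smooth muscle markers. The type of these 4 cells was not tested. In cluster 14, 2 of 8 tested members were called (19.3% of genes), both lower. All 5 UMIs of *Tnfrsf9* of dataset 1 lay in this cluster, in tube2.

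In endocrine clusters the share of members called was not above that of genes. Of 16 members tested, 7 were called in cluster 14 of dataset 2 (2 higher, 5 lower, 47% of genes). There were 5 calls in cluster 16 (3 higher, 2 lower, 36.5%) and 5 in cluster 17 (1 higher, 4 lower, 40%). In cluster 9 of dataset 1, 3 of 8 were called, all lower (38.1%). Besides *Tnfrsf21* and *Ltbr*, *Fas*, *Tnfrsf10b* and *Tnfrsf11a* were lower in cluster 14. *Tnfrsf11a* and *Tnfrsf1a* were lower in cluster 17, and *Tnfrsf10b* in cluster 9. *Tnfsf12* was at 19.3 and 20.2 CPM in ECL-like cluster 14 of dataset 2 (18.7-fold, adjusted p = 9.8e-10), at 10.02 and 13 in D cell-like cluster 16 (11.1-fold) and at 47.3 and 26.2 in the mixed endocrine cluster 9 of dataset 1 (49.2-fold), and it was not called in cluster 17 of dataset 2, X/A-like by *Ghrl*, with *Rbp4* among its leading genes. *Tnfrsf9*, a costimulatory receptor, had 13 of its 15 UMIs of dataset 2 in cluster 14 (12.3 and 8.67 CPM), and its ligand *Tnfsf9* was 6.44-fold above the epithelial level in cluster 16 (60.1 and 19.5 CPM, adjusted p = 0.000849). *Tnfrsf12a* was at 183 and 286 CPM in cluster 17 (log2 fold change 2.44 ± 0.31 SE, adjusted p = 3.3e-08) and at 86.0 and 80.9 in cluster 14 (0.96 ± 0.33, adjusted p = 0.0156). The dissociation list summed to 26455 and 27128 CPM in cluster 17 and to 10647 and 15146 in cluster 14, and its part in these levels was not tested.

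*Tnfrsf21* ran the other way in nearly every remaining cluster. It was called lower in all 6 clusters of dataset 2, at 0.0343-fold to 0.165-fold of the epithelial level, and in 7 of 8 clusters of dataset 1, all but the chief-like cluster 10, with no UMI at all in cluster 13. *Ltbr* was called lower in clusters 14, 16, 17 and 18 of dataset 2, at 0.336-fold to 0.673-fold, and in clusters 9, 10 and 14 of dataset 1. Chief-like cluster 10 of dataset 1 had 2 calls (30.3% of genes), *Ltbr* and *Tnfrsf1a*, at 0.281-fold and 0.335-fold, the genes that were lowest in chief cells of dataset 2.

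Ligand and receptor could be counted in the same cell. A UMI of *Tnfsf12* was found in 223 cells of dataset 2, 172 of them epithelial, and 117 of the 223 (52.5%) also held one of its receptor *Tnfrsf12a*, against 58.3% of all cells. In dataset 1 this was 32 of 75 cells (42.7%), against 52.5%. *Tnf* was found in 12 cells of dataset 2 and 9 of dataset 1, of which 11 and 8 also held a UMI of *Tnfrsf1a*, a receptor found in 81.4% and 86.6% of all cells. These counts depend on depth. For *Tnfrsf12a*, 971 of 1285 isthmus cells had a UMI (75.6%, 95% exact binomial interval 73.1% to 77.9%), 465 of 702 parietal cells (66.2%) and 494 of 1247 neck cells (39.6%), whereas at 10000 UMIs per cell, after leaving out 6, 1 and 9 shallower cells, the shares were 44.5%, 25.8% and 26.2%. The intervals cover counting error only.

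The genes that act after the receptors were read from lists, described by counts. Of 22 adaptors and kinases tested in parietal against isthmus cells of dataset 2, 8 were higher and 6 lower, while 35.2% of all genes were higher and 36.7% lower (71.8% in all), with a median of 0.18 on the log2 scale against −0.05 for all genes. *Ripk3*, the kinase of necroptosis, fell by 4.70 ± 0.39 SE and *Traf5* by 3.37 ± 0.55, *Casp8* fell by 1.13 ± 0.12, and *Map3k7*, the kinase TAK1, rose by 0.79 ± 0.09. *Ripk3* was also lower in neck than in isthmus cells (−3.41 ± 0.32) and higher in isthmus cells than in the mean of the other types (2.28 ± 0.23), where 5 of 22 were higher and 6 lower. Of 8 IKK and NF-kB subunits, 4 were lower in parietal cells, *Nfkb1* by −0.85 ± 0.09, and 1 was higher. Of 10 NF-kB targets tested, 3 were lower, *Cxcl1* by −3.67 ± 0.89, *Icam1* by −2.19 ± 0.41 and *Bcl3* by −1.42 ± 0.14, and 2 were higher, with *Sod2*, a mitochondrial enzyme, at 2.79 ± 0.08. Each of these 3 lists had a smaller share called than all genes. In isthmus cells against the mean of the other types 3 of these 10 were higher and 1 was lower, while 28.1% and 23.1% of all genes were.

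In the macrophage-like cluster 18 of dataset 2, 8 of 10 NF-kB targets tested passed, 7 higher and 1 lower, and 6 of 8 NF-kB subunits were higher, with *Rel* at 4.15 ± 0.49 SE and *Relb* at 3.04 ± 0.60, while 20.3% of genes passed. Of 8 genes of the superfamily that the naming rule leaves out, such as *Cd40lg* and *Fasl*, 6 were measured and 1 was tested among the epithelial types, *Eda*, which was lower in parietal than in isthmus cells by −1.73 ± 0.33. The dissociation list was also moved in cluster 18, with 10 of 13 genes higher, and its part in the NF-kB lists was not tested.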

How the data were processed

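Single-cell RNA-seq was performed by the authors with Quartz-Seq2 on 18 plates of 384 wells. Per the labels and the study's methods, reads were demultiplexed with bcl2fastq 2.20.0.422 and processed with Drop-seq tools and FASTX-Toolkit. They were aligned with STAR to GRCm39 with a Gencode annotation, an earlier release than the M39 used here for windows and overlaps. The authors deposited UMI counts per gene and well, without normalization. Cells with at least 2500 detected genes were kept by the authors, and clusters and phase calls came from their Seurat tables. Cells were sorted through a singlet gate, which the authors checked by microscope, and no doublet caller was run. Whether counting used strand is not given in the sources used here. The percent of UMIs on mitochondrial genes was also taken from the tables the authors deposited. All 4484 kept cells were matched to their wells by equal UMI totals.

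Levels are CPM, the UMI counts of summed cells divided by their total and scaled to 1e+06. UMI counts were summed per type or cluster and pool, and the sums, never single cells, were tested. There were 2 pools per dataset. edgeR 4.0.16 in R 4.3.3 was used (TMM scaling, filterByExpr, quasi-likelihood F test), with Benjamini-Hochberg adjustment over all genes tested and a call at an adjusted p below 0.05. SE was the log2 fold change divided by the square root of F. The fits had 12 sums and 13894 genes (6 types), 28 and 12922 (cluster 11), 14 and 10229 (dataset 1), 20 and 12132 (interaction), and 40 and 15295 or 30 and 11965 (all clusters of dataset 2 or 1). Outside the main epithelial types, calls were counted over genes that also passed the filter among those types. The scripts were tested on simulated counts. Alternatives were DESeq2 1.42.0, other scaling, no filter, plates as unit, the pool as a block and leaving out each sum. Leave-out fits over all clusters reused the dispersions of the full fit. Intervals and the floor of 3 UMIs cover counting error only. Promoter windows were read with Python 3.11.15.

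Types of a pool came from the same mice, so the pool pairs them. The deviations of types sharing a pool correlated at 0.093 to 0.492 in dataset 2 (15 pairs, 14 above 0.1) and at −0.0289 to 0.0504 in dataset 1 (21 pairs). The main fits held no pool term, so a shift shared by the types of a pool counted as spread. With 2 pools the tests set each difference against the spread between pools, which may be partly technical.

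The members and the gene lists were chosen with earlier results of these data known. All members were accounted for. Values were given for members called in any comparison, for *Tnfsf12*, *Tnfrsf12a*, *Tnf* and *Tnfrsf1a*, and for untested members with at least 10 UMIs in 1 cluster of 1 pool. *Cd40*, *Tnfrsf13b* and *Tnfrsf9* of dataset 1 were named after their values were seen. At most 4 genes of a pathway list were named per comparison.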

Additional observations from a re-analysis of the deposited data

Results flagged for a closer look

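The change of *Tnfrsf21* from isthmus to mature pit cells differed between the datasets by −0.80 ± 0.21 SE on the log2 scale (edgeR interaction test, adjusted p = 0.0365), lower in dataset 2. Over the other settings the adjusted p lay between 9.7e-05 and 0.226, and without scaling factors it was 0.05001. It was above 0.05 in 5 of 8 fits that each left out 1 sum, among them the fit without the corpus mature pit sum of tube1 (0.226).

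Wells that the study did not keep as cells, which no comparison used, also held UMIs of the members. There were 147 in 948 wells of tube1, 300 in 865 wells of tube2, 169 in 354 wells of pool K and 143 in 261 wells of pool T. As CPM without scaling factors this was 103, 188, 169 and 218, against 577, 532, 625 and 682 in kept cells of the same pools.

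Levels in isthmus cells were also compared over the 6 plates of each pool. In 32 groups of 1 member and 1 pool, no plate stood apart by Dixon's criterion, which chance alone passes in about 1 of 20 groups.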

How the results depend on the processing

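Of 174 single calls, DESeq2 lost 23, the lack of scaling factors 11, no filter 7, RLE scaling 3 and the replicate block 3. The block, beyond the values given for *Tnfrsf12a* and *Tnfrsf25*, changed no call described above. These totals and the leave-out values below include members that passed the filter only in the fit over all clusters. Such calls, among them those of *Tnf*, *Tnfsf13b*, *Tnfrsf9* and *Tnfsfm13* below, are not read as tests. Leaving out 1 sum gave 727 values past the threshold in the same direction, 110 no longer past it and 5 reversed. The reversed ones were *Tnf* in cluster 14 (−0.56 to 6.24) and *Tnfsf13b* in cluster 16 (−0.55 to 8.16) of dataset 1, low without tube2, *Tnfrsf22* in cluster 16 of dataset 2, low without pool T (−4.53 to 3.46), and *Tnfrsf9* in cluster 17 (−0.22 to 6.08) and *Tnfsfm13* in cluster 18 (−2.08 to 7.17) of dataset 2, low without pool K. Without scaling factors, *Ltbr* (−0.061) and *Tnfrsf1a* (−0.012) reversed in mature pit cells of dataset 2. The cause was not tested.

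Numbers of members called moved in dataset 1. Isthmus-like cells had 2 calls, 1 in DESeq2, 5 without filter and 5 without scaling factors. Mature pit cells had 6 and 3 in DESeq2, neck cells 4 and 2 in DESeq2, parietal cells 5 and 9 without filter, and corpus against antrum 1 and 2 without filter. The interaction had 1, 2 without filter and 0 without scaling factors. The share of isthmus cells with a UMI of *Tnfrsf12a* was 44.5% at 10000 UMIs, 28.4% at 5000 and 75.6% unthinned.

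Leaving out 1 sum at a time, the numbers in dataset 2 ranged from 14 to 16 for the 6 types, 6 to 9 for isthmus, 2 to 6 for mature pit, 5 to 8 for neck, 12 to 14 for parietal cells, 1 to 4 for cluster 11 and 17 to 19 for the other clusters. In dataset 1 they ranged from 7 to 8 for the 7 types, 0 to 3 for isthmus-like, 2 to 6 for mature pit, 1 to 3 for neck, 5 to 6 for parietal cells, 0 to 2 for corpus against antrum and 14 to 16 for the other clusters. The interaction ranged from 0 to 1 and the share from 38.0% to 49.6%. The numbers for the other clusters include members that passed the filter only in the fit over all clusters. A lone sum was assumed to vary like the other groups. Clusters of 8 to 32 cells, with few UMIs per member, limit the calls outside the main epithelial types.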
